A study of Mus musculus with 3 samples.

Results

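The 9 erythroid genes described here are Gata1, Klf1, Hba-a1, Alas2, Car1, Car2, Slc4a1, Ermap and Sptb. They were taken by symbol from a table of 28074 named genes measured in 3 mouse acute myeloid leukemias, and all 9 were listed. The leukemias arose in 3 mice with miR-196b deleted (-/-), floxed Dnmt3a (fl/fl), Flt3 carrying the internal tandem duplication (ITD/ITD) and the Mx1Cre transgene. The sample titles write the Dnmt3a genotype as +/- instead, which differs from the fl/fl of the genotype labels. The 3 mice, numbered 5348, 5451 and 5480 in the labels, are called mice 1, 2 and 3. Splenocytes of the moribund animals were freed of red blood cells by lysis and enriched on magnetic beads for cells bearing the receptor c-Kit (CD117). Age and sex are not among the labels used here. Mx1Cre is an interferon-inducible recombinase that acts in blood cells and in other tissues, so the Dnmt3a lesion is not limited by it to a single lineage. Control leukemias from another series were not used here, so no difference between genotypes is given.

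Red blood cells develop from c-Kit-bearing progenitors in bone marrow and, in the mouse, also in the spleen. GATA1 and KLF1 are the transcription factors that switch on the erythroid genes. ALAS2 starts heme synthesis in these cells, globins bind the heme, and carbonic anhydrases interconvert carbon dioxide and bicarbonate. SLC4A1 (band 3) exchanges bicarbonate and chloride across the membrane, spectrin supports the membrane from inside, and ERMAP is an erythroid membrane protein of the immunoglobulin superfamily. c-Kit is carried by early erythroid progenitors and lost as they mature.

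Values are TPM, transcript abundance per length scaled to a fixed total per library, so levels of different genes can be compared. Differences are given on the log2(TPM + 1) scale, and a fold is the ratio of TPM + 1, which understates the change of low genes. The listed values summed to between 927169 and 929731 per library. Genes at 1 TPM or more numbered 14976 to 15108 per library. With 1 library per mouse, a difference between mice has no replicate and no test, and it is set beside the 15181 genes averaging 1 TPM or more, called expressed here. In bulk RNA, fewer cells of a type and less RNA per cell cannot be told apart. Kit was at 139, 149 and 133 TPM in mice 1, 2 and 3.

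Erythroid RNA was measured in all 3 leukemias, at moderate levels for most of the genes and at low levels for the globin genes analysed. Car2 was the highest, with a mean of 173 ± 81.8 TPM (SD, n = 3), and Ermap followed at 38.8 ± 20.2 TPM. Klf1, Slc4a1, Gata1, Alas2, Sptb and Car1 lay close together, with means from 11.2 to 14.1 TPM. Hba-a1, an adult alpha-globin gene, averaged 0.584 ± 0.599 TPM. Of the 9 genes, 8 averaged 1 TPM or more, and each of those 8 was at 5.52 TPM or more in every mouse.

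**Figure D1:**
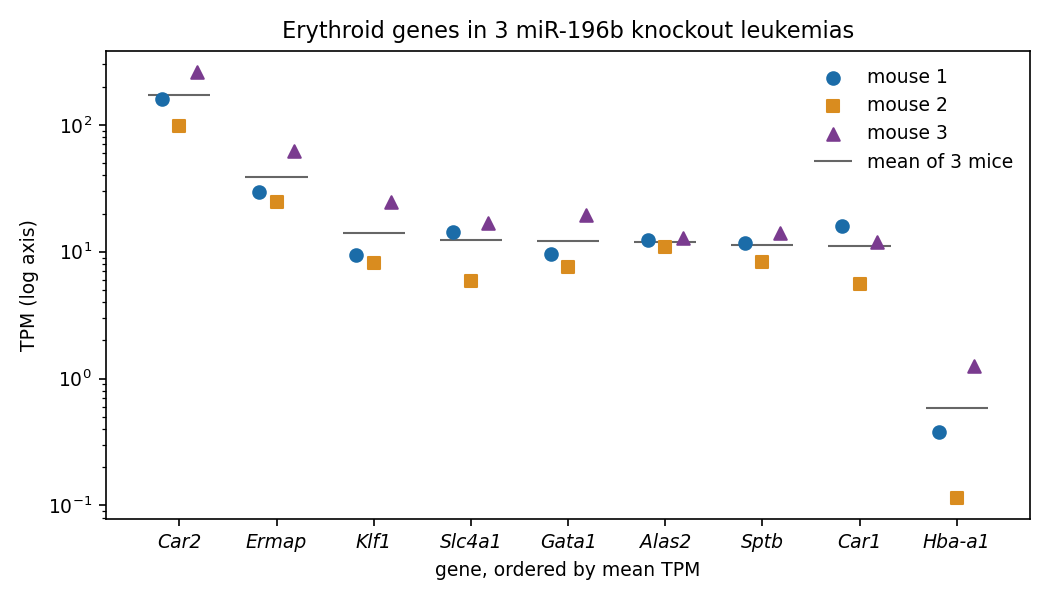
TPM (log axis) of the 9 erythroid genes, ordered by mean, in each of the 3 knockout leukemias, with the mean of the 3 mice as a horizontal line. Mouse 2 is the lowest for every gene, Car2 lies highest (98.5 to 261 TPM) and Hba-a1 lies lowest (0.116 to 1.26 TPM).

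In the order of levels, Car2 exceeded Ermap and Ermap exceeded Klf1 in 3 of 3 mice, with ranges over mice that did not overlap. The 6 genes from Klf1 to Car1 could not be ordered beyond their spread. Their neighbours differed by between -0.07 and 0.12 log2 units on average, against SDs of 0.24 to 0.58 for those differences, and their ranges overlapped. Car1 exceeded Hba-a1 in 3 of 3 mice. Among all expressed genes Car2 ranked 738, at percentile 95.1, and Ermap stood at percentile 71.0. The other 6 stood between percentiles 39.5 and 44.7, below the middle of the expressed genes.

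**Figure D2:**
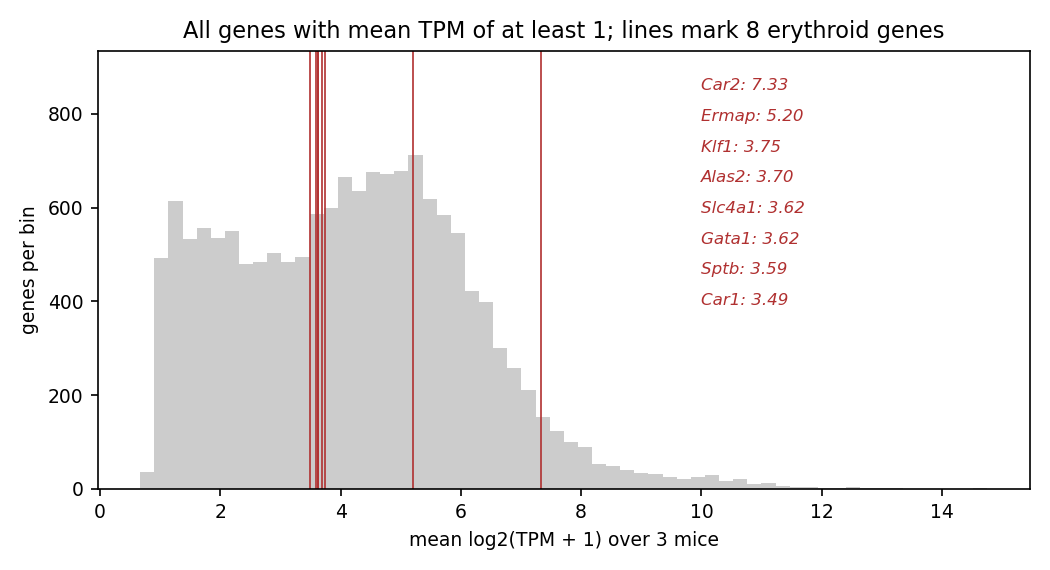
Histogram of the mean log2(TPM + 1) over 3 mice for the 15181 genes averaging 1 TPM or more, with lines at the 8 erythroid genes that reach it. Car2 (7.33) and Ermap (5.20) stand apart from the other 6, which lie between 3.49 and 3.75.

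The regulators were measured first. Gata1, the zinc finger factor that binds erythroid and megakaryocyte promoters, was at 9.60, 7.62 and 19.5 TPM in mice 1, 2 and 3. Mouse 3 stood above the others, 2.38-fold over mouse 2 and 1.93-fold over mouse 1. Klf1, the CACC-box factor of the adult globin genes, was at 9.41, 8.11 and 24.6 TPM. Again mice 1 and 2 were close and mouse 3 was high, 2.82-fold over mouse 2 and 2.46-fold over mouse 1. The ratio of Klf1 to Gata1 was 0.980, 1.06 and 1.26, close to even in mice 1 and 2. Gata1 lies at X:7959260-7978071 on the minus strand and Klf1 at 8:84901928-84905291 on the plus strand (GENCODE M21, GRCm38, the build also called mm10).

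Promoter sequence is shown for Klf1, Gata1 and Ermap, which were all high in mouse 3, and for Alas2, which was nearly level over the mice. RefSeq promoters (GRCm38.p6) were matched for 6 of the 9 genes: Gata1, Klf1, Hba-a1, Alas2, Ermap and Sptb. The 250 bases before the annotated start were searched on both strands for the GATA motif (AGATAA or AGATAG, or TGATAA or TGATAG) and the CACC box (CCNCNCCC). No GATA motif overlapped a CACC box, while CACC boxes overlapped each other in Alas2 and Sptb. Stretches are given 5′ to 3′ on the gene's strand from 120 bases before the RefSeq start to the first exon base in GENCODE M21 or the start, whichever comes first. Capitals mark GATA motifs and CACC boxes on either strand.
Klf1 (chr8:84901862-84901927, plus strand): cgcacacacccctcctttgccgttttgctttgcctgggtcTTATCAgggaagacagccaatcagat
Ermap (chr4:119190012-119190115, minus strand): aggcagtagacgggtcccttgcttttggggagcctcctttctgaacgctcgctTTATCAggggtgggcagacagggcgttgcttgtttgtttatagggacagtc
Alas2 (chrX:150547297-150547374, plus strand): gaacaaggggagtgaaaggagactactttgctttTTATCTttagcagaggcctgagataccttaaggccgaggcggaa
Gata1 (chrX:7967911-7968030, minus strand): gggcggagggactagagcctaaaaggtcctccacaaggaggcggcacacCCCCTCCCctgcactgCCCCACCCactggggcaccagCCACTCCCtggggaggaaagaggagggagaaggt
A GATA motif was found in 4 of the 6 promoters (Klf1, Ermap, Alas2 and Hba-a1), against 26.5% of the 32851 promoters in the table and 18.2% of the 12692 of expressed genes. It began 80, 67 and 86 bases before the start in Klf1, Ermap and Alas2, each time on the opposite strand, and 183 bases before it in Hba-a1. The CACC box was found in 3 of the 6 (Gata1, Alas2 and Sptb), which lies between the shares of all promoters (45.9%) and of those of expressed genes (61.1%). In Alas2 it began 42, 40, 35 and 26 bases before the start, beyond the end of the printed stretch, so it is not marked there. In Gata1 it occurred 3 times, starting 71, 55 and 34 bases before the start, and the RefSeq start used there lies inside the longer annotated gene. The E-box CAGATG was found in Klf1, 59 bases before the start, and 14.4% of all promoters and 10.5% of those of expressed genes hold it. These matches are letters in a window, and no binding was measured.

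The partners of GATA1 gave context for its level. Gata2, the GATA factor of stem cells and early progenitors that GATA1 replaces during erythroid maturation, was at 44.3, 16.8 and 16.9 TPM. It was high in mouse 1 alone, where Gata1 was not. The ratio of Gata1 to Gata2 was therefore 0.217, 0.454 and 1.15 in mice 1, 2 and 3, and Gata1 exceeded Gata2 in mouse 3 only. Tal1, the basic helix-loop-helix partner in the erythroid complex, was at 24.2, 12.9 and 24.5 TPM. Gfi1b, a repressor needed for red cell and platelet development, was at 25.7, 17.3 and 28.9 TPM, and the GATA1 cofactor Zfpm1 (FOG1) at 32.3, 21.9 and 36.6 TPM. These 3 were lowest in mouse 2 but stayed under 2-fold. Lmo2, the bridging protein of that complex, was the most abundant of the regulators on the list, at 198, 188 and 220 TPM. Among the other KLF genes, Klf2 (314, 641 and 369 TPM) and Klf4 (89.0, 164 and 79.4 TPM) were highest in mouse 2, where Klf1 was lowest. Klf9 was high in mouse 1, at 32.0 TPM, and at most 9.41 TPM in the others.

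**Figure D3:**
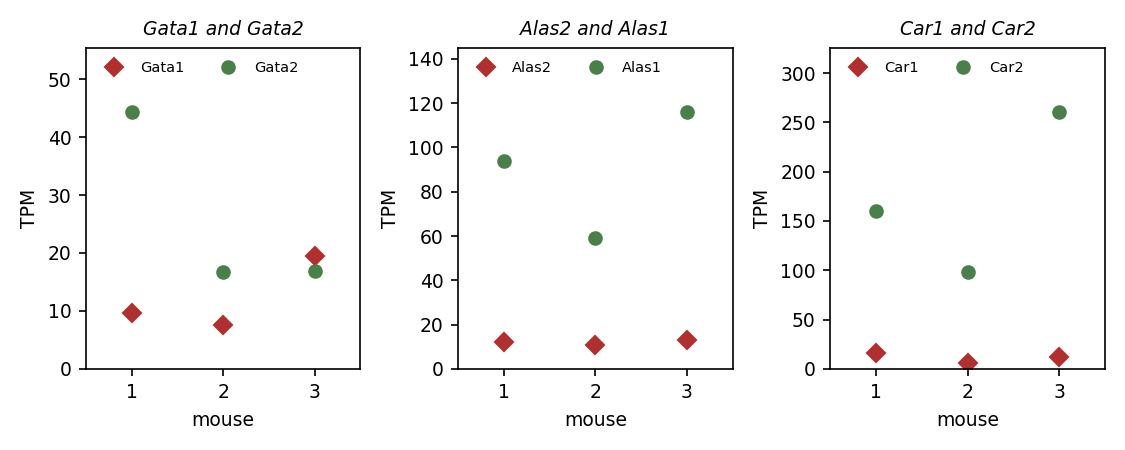
TPM per mouse (linear axes from 0) for Gata1 with Gata2, Alas2 with Alas1 and Car1 with Car2. Gata1 passes Gata2 in mouse 3 only (19.5 against 16.9 TPM), and Alas1 and Car2 exceed Alas2 and Car1 in every mouse.

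RNA of the globin genes analysed was scarce. Hba-a1 was at 0.377, 0.116 and 1.26 TPM, low in all mice and highest in mouse 3. It lies at 11:32283511-32284465, and its neighbouring copy Hba-a2 was at 2.22, 2.05 and 4.93 TPM. The shorter protein-coding transcript, that of Hba-a2, differs from the longer one at 17 of 554 positions (96.9% identical), so how reads were divided between the copies is uncertain. Their sum was 2.60, 2.16 and 6.19 TPM. The adult beta-globin genes Hbb-b1 and Hbb-b2, themselves similar copies, summed to 16.1, 3.21 and 13.7 TPM. Hbb-b1 was highest in mouse 3 (4.15, 0.719 and 9.19 TPM) and Hbb-b2 in mouse 1 (11.9, 2.50 and 4.51 TPM), and both were lowest in mouse 2. The embryonic genes Hba-x, Hbb-bh1 and Hbb-y were listed at 0 in all mice. Hbb-bs and Hbb-bt, 2 other adult beta-globin symbols, and the alpha-globin chaperone gene Ahsp were not found among the named genes, so no levels are given for them. All globin rows used made up 0.00202%, 0.000603% and 0.00218% of the named TPM. The protocol's red cell lysis and c-Kit enrichment precede these values, and their part in the low globin level was not tested.

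The heme genes spanned a median of 1.43-fold between the highest and the lowest mouse, against 1.32-fold over all expressed genes. Alas2, the erythroid 5-aminolevulinate synthase, was at 12.3, 10.8 and 12.9 TPM, a fold of 1.17 between the highest and the lowest mouse and an SD of 0.12 log2 units. It was the flattest of the 8 expressed erythroid genes, though still lowest in mouse 2. Alas2 lies at X:150547375-150570638, and 311 of its 2403 exonic bases are shared with Apex2 on the opposite strand, which was itself flat at 17.9, 18.8 and 19.0 TPM. The libraries were stranded per the labels, but whether strand was used in quantification is not given in the sources used here, and its part in the flat Alas2 values was not tested. Alas1, the synthase of all other cells, was 7.60, 5.46 and 9.02 times as abundant as Alas2. Of the 13 heme synthesis and transport genes, 10 were lowest in mouse 2 and 0 passed 2-fold, against 33.0% and 8.57% of expressed genes. The closest were Alas1 (1.95-fold) and Alad (1.94-fold). Those 2 passed 2-fold after upper-quartile or median-of-ratios scaling of the libraries, as did 8.65% of expressed genes under each.

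The 2 carbonic anhydrase genes differed widely in level. Car2, the abundant cytosolic enzyme that progenitors and many other cells also make, was at 160, 98.5 and 261 TPM. Mouse 3 was highest, 2.63-fold over mouse 2, and mouse 1 lay between at 1.62-fold. Car1, the enzyme of red cells and their early committed progenitors, was at 16.1, 5.52 and 11.9 TPM. Car1 was the one of the 9 genes that was highest in mouse 1, 2.62-fold over mouse 2, with mouse 3 just short of 2-fold at 1.97. Car2 was 9.96, 17.8 and 22.0 times as abundant as Car1. Both lie on chromosome 3, Car1 at 14766216-14808368 on the minus strand and Car2 at 14886273-14900770 on the plus strand. Of the other 14 carbonic anhydrase genes, 9 were expressed, 3 of them were lowest in mouse 2, and only Car12 passed 2-fold (7.98, 3.90 and 2.16 TPM). The shares over all expressed genes were 33.0% and 8.57%.

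Of the 3 membrane genes, 2 differed by over 2-fold between mice. Slc4a1, the anion exchanger band 3 (11:102348824-102366203, minus strand), was at 14.2, 5.87 and 16.9 TPM. Mice 1 and 3 were close to each other and both above mouse 2, by 2.22-fold and 2.61-fold. Ermap (4:119175457-119190011, minus strand) was at 29.7, 24.7 and 62.0 TPM, with mouse 3 higher by 2.45-fold over mouse 2 and 2.05-fold over mouse 1. Sptb, erythroid beta-spectrin (12:76580488-76710547, minus strand), was at 11.6, 8.27 and 14.0 TPM and spanned 1.62-fold.

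Read together, the 9 genes were lowest in mouse 2 as deposited, and 8 were highest in mouse 3. Scaled to the housekeeping gene Hprt in each mouse, 5 of the 9 were lowest in mouse 2, the exceptions being Gata1, Klf1, Alas2 and Ermap, and so were 8.93% of expressed genes. Scaled to the geometric mean of the 12 housekeeping genes, all 9 were lowest in mouse 2, as were 36.1% of expressed genes. Among the 8 expressed genes, 8 were lowest in mouse 2, as were 33.0% of all expressed genes, and 7 were highest in mouse 3, as were 20.3%. That last share was 31.3% after upper-quartile and 30.7% after median-of-ratios scaling. The full order of mouse 2 below 1 below 3 was shown by 7 of 8, against 10.3% of expressed genes, or 14.6% after either of these. A fold of at least 2 between the highest and the lowest mouse was reached by 6 of 8 (Gata1, Klf1, Car1, Car2, Slc4a1 and Ermap), against 8.57%. Hba-a1, which averaged under 1 TPM and is outside the 8, was at 2.03-fold. The median fold of the 8 was 2.53, against 1.32 over all expressed genes, and their median level was 3.83, 3.20 and 4.26 log2 units in mice 1, 2 and 3. The 6 rested on the mouse with the low or the high values: 5 passed without mouse 1, 2 (Klf1 and Ermap) without mouse 2 and 2 (Car1 and Slc4a1) without mouse 3. Over the same pairs of mice, 2.96%, 5.52% and 4.67% of expressed genes passed.

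The pairs of mice showed different genes. Mouse 3 was at least 2-fold above mouse 2 for 5 of 8 (Gata1, Klf1, Car2, Slc4a1 and Ermap), against 1.59% of expressed genes. Mouse 1 was at least 2-fold above mouse 2 for 2 of 8 (Car1 and Slc4a1), against 2.09%. Mouse 3 was at least 2-fold above mouse 1 for 2 of 8 (Klf1 and Ermap), against 2.54%. Klf1 and Ermap were thus the genes at least 2-fold higher in mouse 3 than in both others, with Gata1 just short over mouse 1 (1.93-fold). Slc4a1 was the one at least 2-fold lower in mouse 2 than in both others, with Car1 just short against mouse 3 (1.97-fold). The median over all expressed genes was itself shifted by -0.13 log2 units between mice 3 and 1, and by 0.01 after upper-quartile or median-of-ratios scaling. The 9 and the 8 genes lowest in mouse 2 and highest in mouse 3 were the same in number under both of these.

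**Figure D4:**
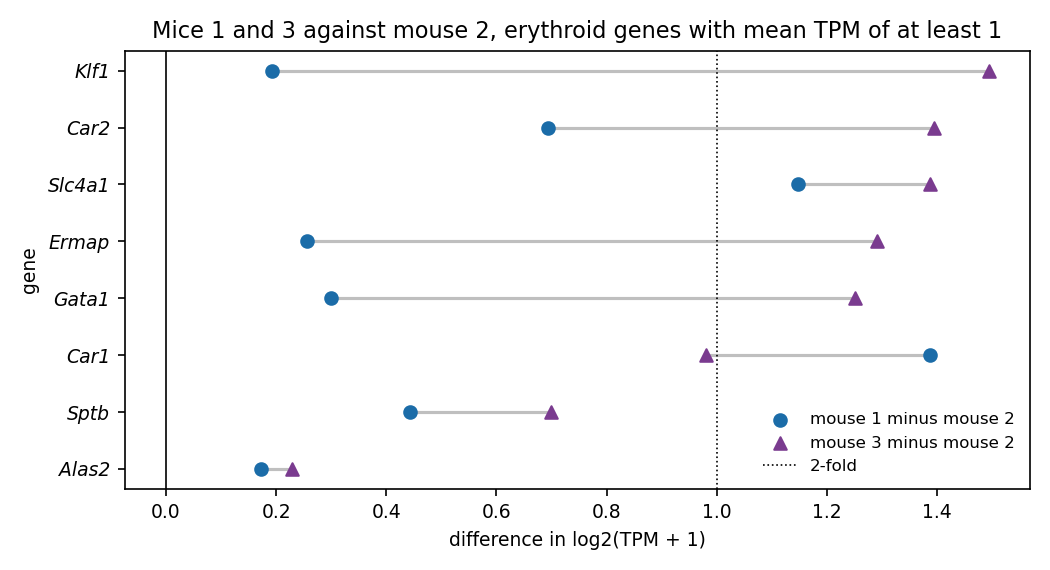
Difference in log2(TPM + 1) from mouse 2 for mouse 1 (circles) and mouse 3 (triangles), for the 8 expressed erythroid genes, with 2-fold as a dotted line. All points lie above 0, Klf1 has the widest gap between mice 1 and 3, and Car1 is the one gene with mouse 1 above mouse 3.

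When each gene was set against the median of the 8 in its own mouse, the spread over mice narrowed for 7 of them. The SD over mice went from 0.70 to 0.18 log2 units for Car2, from 0.65 to 0.26 for Gata1, from 0.74 to 0.26 for Slc4a1, from 0.68 to 0.31 for Ermap and from 0.35 to 0.18 for Sptb. Klf1 kept 0.44 of 0.81 and Car1 0.46 of 0.71. Alas2 went the other way, from 0.12 to 0.42, since it did not follow the others. The 8 genes themselves enter the median here, so these values are a description.

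Other erythroid genes were taken from 6 lists of regulators, globins, heme synthesis, red cell membrane, erythropoietin and iron uptake, and late maturation. Without the 9 genes the lists held 67 expressed genes. Of these, 51 were lowest in mouse 2 and 42 highest in mouse 3, against 33.0% and 20.3% of all expressed genes. A fold of 2 was reached by 20 (29.9%), against 8.57%. Without mouse 2 the 20 became 5, without mouse 3 they became 6, and without mouse 1 they became 17. The shares of all expressed genes past 2-fold were then 5.52%, 4.67% and 2.96%. After upper-quartile or median-of-ratios scaling 49 were lowest in mouse 2, against 32.9% and 33.5% of expressed genes. When scaled to Hprt 35 were, against 8.93%.

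Of these 20 genes past 2-fold, 10 belonged to the membrane list. Of its 20 genes with Slc4a1, Ermap and Sptb included, all expressed, 12 reached 2-fold, against 8.57% of all expressed genes. In all 12 mouse 3 was at least 2-fold above mouse 2, as it was for 1.59% of expressed genes. The 12 became 3 without mouse 2 and 2 without mouse 3, where 5.52% and 4.67% of expressed genes passed. Rhd, a Rhesus blood group protein, was at 10.1, 4.79 and 20.0 TPM, and the water channel Aqp1 at 44.4, 23.1 and 67.0 TPM. Ank1, the ankyrin that ties band 3 to spectrin, was at 10.9, 8.67 and 19.6 TPM. Kel, a blood group antigen, was high in mouse 3 as well (7.69, 9.06 and 19.7 TPM), but was lowest in mouse 1, as was true of Epb4.2 and Epb4.9. Slc2a1, the glucose transporter of many cells, was lowest in mouse 3.

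For the lists that follow, the share of all expressed genes past 2-fold was 8.57%, or 5.52% without mouse 2 and 4.67% without mouse 3. Late maturation genes divided. Of 13 expressed, 6 reached 2-fold, among them Blvrb, a biliverdin reductase (31.9, 20.4 and 64.5 TPM), the mouse erythroid claudin Cldn13 (12.8, 5.76 and 20.5 TPM) and Hemgn (15.9, 9.82 and 21.8 TPM). The 6 became 1 without mouse 2 and 2 without mouse 3. Trim58, a ubiquitin ligase of late erythroblasts, differed from these, since it was high in mouse 1 alone (11.9, 3.78 and 4.55 TPM). Of 11 genes for erythropoietin signalling and iron uptake, 2 reached 2-fold. These were Epor, the erythropoietin receptor (4.82, 3.15 and 9.83 TPM), and Tfr2, a transferrin receptor that associates with it (6.62, 4.67 and 12.6 TPM). Neither passed without mouse 2 or without mouse 3. Ftl1, a ferritin chain and the most abundant of that list, was flat at 1497, 1646 and 1559 TPM. Of the 13 other regulators, 1 (Gata2) reached 2-fold, near the share of all expressed genes. In mouse 2, 10 were lowest, against 33.0% of expressed genes, the exceptions being Bcl11a, Klf3 and Zbtb7a.

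**Figure D5:**
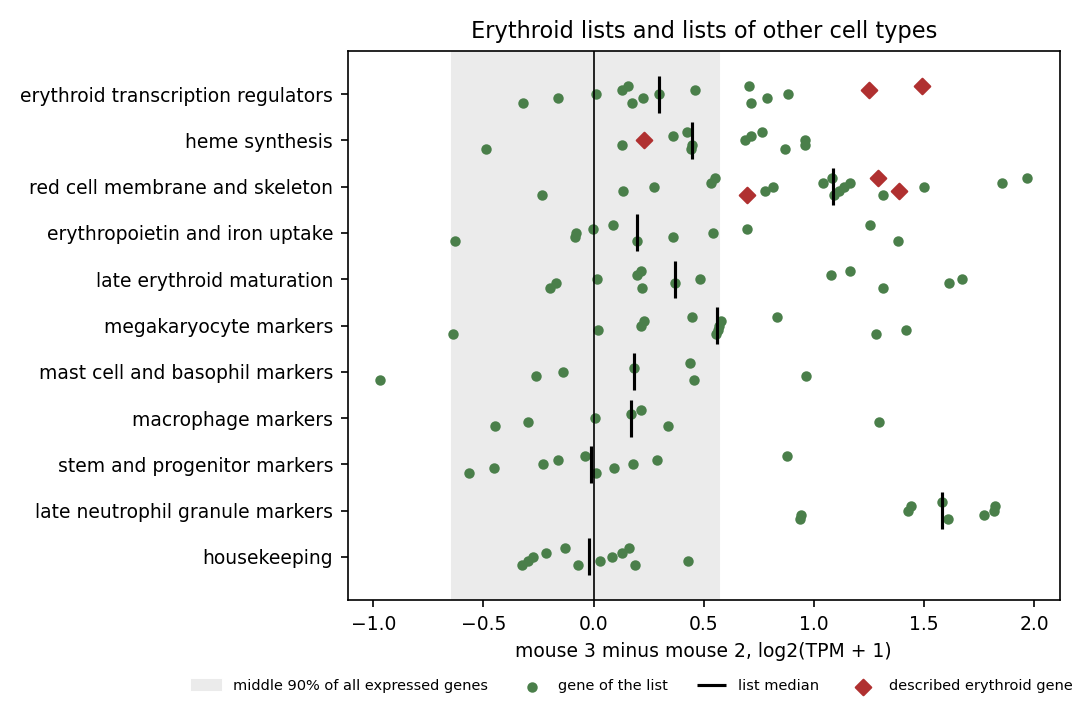
Difference between mouse 3 and mouse 2 in log2(TPM + 1) for each expressed gene of the erythroid lists with at least 5 expressed genes and of lists for other cell types, with list medians as black bars and the middle 90% of all expressed genes (-0.64 to 0.57) shaded. The red cell membrane list has a median of 1.09, the late neutrophil granule list 1.58 and the housekeeping list -0.02. Medians of the regulator (0.30), heme (0.45), erythropoietin and iron (0.20) and late maturation (0.37) lists lie inside the shading. The megakaryocyte median (0.56) does too, but the shading is the spread of single genes and not of list medians. The median of all expressed genes was -0.05.

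Markers of other cell types also differed between the mice. Their counts stand beside 33.0% of all expressed genes lowest in mouse 2, 20.3% highest in mouse 3 and 8.57% past 2-fold. All 9 late neutrophil granule genes reached 2-fold and followed another order, mouse 1 below 2 below 3, with summed levels of 2476, 6474 and 21545 TPM. None of them was lowest in mouse 2. Of 12 expressed megakaryocyte genes, which share GATA1 with the erythroid lineage, 8 were lowest in mouse 2 and 6 highest in mouse 3. The order of mouse 2 below 1 below 3 was shown by 3, against 10.3% of expressed genes, and 3 reached 2-fold. Those past 2-fold were Pf4 (6.73, 20.4 and 51.0 TPM) and Ppbp (1.11, 1.56 and 5.83 TPM), lowest in mouse 1, and Itga2b (49.0, 15.5 and 18.2 TPM), highest in mouse 1. The list summed to 133, 107 and 142 TPM. Mast cell and basophil genes, another GATA-dependent lineage, summed to 113, 63.4 and 78.9 TPM. Of 7 expressed, 2 were lowest in mouse 2, 3 were highest in mouse 3 and 3 reached 2-fold. Those past 2-fold were Cpa3 (51.9, 14.6 and 13.2 TPM), Mcpt8 (31.4, 12.5 and 17.3 TPM) and Mitf (2.39, 8.68 and 3.94 TPM). The mast cell tryptases Tpsb2 and Tpsab1 were at 0. Macrophage genes summed to 43.9, 57.5 and 71.4 TPM. Of 7 expressed, 1 was lowest in mouse 2, 4 were highest in mouse 3 and 2 reached 2-fold. Stem and progenitor genes summed to 662, 551 and 482 TPM. Of 10, 3 were lowest in mouse 2, 3 were highest in mouse 3 and 2 reached 2-fold. The part of these other cells in the erythroid values was not tested. Of 12 housekeeping genes 5 were lowest in mouse 2, 3 were highest in mouse 3 and 0 reached 2-fold. Relative to the housekeeping gene Hprt, Gata1 was 0.0588, 0.0617 and 0.139, Klf1 was 0.0576, 0.0656 and 0.175, and Ermap was 0.182, 0.200 and 0.440. Mouse 1 was the lowest for these 3 on that scale and mouse 3 the highest. Car2 relative to Hprt was lowest in mouse 2, at 0.980, 0.798 and 1.85. Hprt itself was at 163, 124 and 141 TPM and lowest in mouse 2.

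The genes whose profile over the 3 mice was nearest to the median profile of the 8 were sought among 9411 genes outside the lists with a mean of at least 10 TPM. In order they were Stard10, Ces2g, Slpi, Mfsd2b, Gstm5, Isg20, Prtn3, Tfec, Gsr and Hp. Their distances ran from 0.06 to 0.19 log2 units, and those of the 8 genes themselves from 0.18 (Car2) to 0.76 (Car1). The 10 were picked as the smallest distances and the 8 were not, so these ranges cannot be compared. Stard10 was at 27.8, 18.8 and 43.8 TPM, Mfsd2b, a sphingolipid exporter of red cells, at 13.8, 10.1 and 22.7 TPM, and Prtn3, a neutrophil granule protease, at 485, 346 and 670 TPM. With 3 mice many genes share a profile by number alone, and nothing more is read from it.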

How the data were processed

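RNA of c-Kit-enriched leukemic splenocytes from 3 mice was sequenced. Per the labels' protocols, samples passed an RNA integrity number of 8, libraries were stranded and read paired-end at 150 nt, and 1 protocol names ribosomal depletion where another names an mRNA kit. The authors deposited linear TPM values per gene symbol, although the file's name says log2 FPKM. Column sums alike within 0.276% are the ground for calling them TPM. kallisto and mm10 are named per the submitters' processing notes, and versions, annotation and strand setting are not given in the sources used here. TPM keep no depth, so no counting interval is given. Of 28987 rows, 795 without a symbol and 27 with a date for a symbol were left out, and rows of 90 symbols were summed, none among the 9 genes. The 3 per-sample columns of control leukemias were not used.

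Levels were put on log2(TPM + 1). The SD covers the 3 mice, the fold threshold was 2, and genes averaging 1 TPM or more were the background. With 1 group no test was made. The 9 genes and the lists were chosen with earlier results of these data known. Named genes are the 9, genes of the lists that pass 2-fold or are highest, lowest or at 0 in their list, and the 10 nearest profiles by Euclidean distance of centred values. Tal1, Gfi1b, Zfpm1, Kit, Hba-a2, Slc2a1, Epb4.2, Epb4.9, Bcl11a, Klf3, Zbtb7a, Alad, Hprt and Apex2 were named after their values were seen. Some genes that the rule names are counted in their lists but not reported here by name. Counting was tested on simulated data. Python 3.11.15, numpy 2.4.6 and pandas 2.3.3 were used.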

Additional observations from a re-analysis of the deposited data

How the results depend on the processing

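Alternatives were a pseudocount of 0.1, upper-quartile and median-of-ratios scaling, a minimum mean of 5 TPM or any value above 0, symbols on several rows left out, and each mouse left out. Scaling to Hprt or to the housekeeping genes was chosen after seeing the data. The counts of the 9 genes lowest in mouse 2 (9) and highest in mouse 3 (8) were the same under the pseudocount, both planned scalings, symbols left out and the housekeeping genes. Scaled to Hprt they were 5 and 8, and the share of expressed genes lowest in mouse 2 was 8.93%. The count past 2-fold among the 8 expressed genes was 6 under every scaling, at the pseudocount of 0.1 and with symbols left out, and was not recomputed for other minimum means. It ranged from 2 to 5 with a mouse left out. For the other erythroid genes it ranged from 5 to 17 with a mouse left out. The share of all expressed genes past 2-fold was 13.1% with a pseudocount of 0.1 and ranged from 2.96% to 5.52% with a mouse left out, since fewer mice give a smaller range. The share of expressed genes highest in mouse 3 was 31.3% after upper-quartile and 30.7% after median-of-ratios scaling, against 20.3% as deposited. Of 162 recomputed levels, spreads and folds of the 9 genes with all mice, 159 changed by under 1 SD over the mice, and the 3 that did not were those of Hba-a1 at a pseudocount of 0.1. With a mouse left out, 72 of 81 did. Of 240 recomputed list counts with all mice, 214 stayed within 1.5 times, and of 45 with a mouse left out 20 did. Of the 10 nearest genes, 9 were shared at a pseudocount of 0.1 or after scaling to the housekeeping genes, and 10 under the other alternatives. Depth is unknown, so counting error in low values such as those of the globins cannot be stated. No paired analysis was possible because the labels hold 1 group.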
